A study of Nasonia vitripennis with 70 samples.

Results

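The subunits of oxidative phosphorylation were described in the transcriptome of the parasitoid wasp Nasonia vitripennis, over all 16 groups of the WGDL strain, in which colchicine was used to double the genome. Members were the rows of the count table whose gene symbol begins, ignoring case, with Nduf, Sdh, Uqcr, Cox followed by a digit, or Atp5, with Cox6c and Cox7a1 left out. The rule reads gene symbols and no measured value. The rule found 62 of 14621 genes, and all 62 passed the filter on low counts in every fit. By complex there were 31 genes of complex I, 4 of complex II, 7 of complex III, 6 of complex IV, 13 of complex V and 1 assembly factor, Cox15. Ndufa4 was counted with complex I by its symbol, although in mammals its product is now placed in complex IV. Poly-A RNA was sequenced from heads and from abdomens taken 1 day after emergence. Nasonia is haplodiploid, and the line holds males and females with an additional chromosome set. Males were F15 diploids (n = 4), F15 haploids (n = 4), F5 diploids (n = 5) and F5 haploids (n = 5), and females were F14 triploids (n = 4), F14 diploids (n = 4), F2 triploids (n = 5) and F2 diploids (n = 4), with these numbers in each tissue. All groups belong to the WGDL line, the haploid males and diploid females included, so no wasps from outside the line enter any comparison. The sources used here do not state the number of animals behind a library.

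Oxidative phosphorylation makes most of the ATP of an animal cell in the inner mitochondrial membrane. Complexes I and II take electrons from NADH and succinate, complex III passes them to cytochrome c, and complex IV hands them to oxygen. Complexes I, III and IV pump protons, and complex V, the ATP synthase, lets the protons flow back and makes ATP. Insect flight muscle and nervous tissue are known for a high demand on this system. A few core subunits of complexes I, III, IV and V are encoded in the mitochondrial genome and are not among the members, which carry the symbols of nuclear genes. The roles given below are those known from mammals.

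Library totals lay between 12.2 and 25.1 M (mega) counts. Replicates are known by library code alone and nothing in the labels says that they came from separate cultures or animals, so p-values measure the spread between these libraries, which may be partly technical. Heads held 991 to 9860 CPM (the usual read count per mega-count of effective library size, scaled within a tissue) summed over the eye markers Lop1, HisCl1 and white, against at most 2.72 CPM in 34 of the 35 abdomens. The exception was library C46, labelled an F5 diploid male abdomen. It held 3658 CPM of the opsin gene Lop1, against at most 2.43 CPM in the other abdomens and 939 to 9812 CPM in heads. HisCl1, a histamine-gated channel of the visual system, stood at 79.6 CPM in C46, against at most 0.652 CPM in the other abdomens. The library goes against its label. The number of members called in each comparison of abdomens is given with and without it, as are the log2 changes of named members that it moves. Counts by complex, counts shared between comparisons and counts with another library left out include C46. The muscle markers Tm1, Tm2 and Zasp66 summed to 484 to 8232 CPM in heads and 687 to 6911 CPM in abdomens. Tm1 alone stood at 388 to 7411 CPM in heads and 582 to 5359 CPM in abdomens, so the sum mainly follows Tm1.

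Levels of different members were compared in deposited TPM, which is corrected for transcript length. Subunit c of the ATP synthase, Atp5g2, whose copies form the rotating membrane ring, had the highest mean level of all members, at 5556 TPM over the 70 libraries. In complex V it was followed by Atp5i, subunit e of the membrane part, at 2152 TPM, and the lowest was Atp5d, the delta subunit of the central stalk, at 481 TPM. Complex III ran from 2867 TPM for Uqcrq and 1818 TPM for Uqcr11 to 292.6 TPM for Uqcr10, all 3 of them small accessory subunits. Complex IV, from which the rule leaves out Cox6c and Cox7a1, was the most even among the members kept. It ran from 2369 TPM for Cox6a1 and 2078 TPM for Cox6b1 to 1182 TPM for Cox4I1. The 31 genes of complex I spread from 1663 TPM for the accessory subunit Ndufa7 and 1568 TPM for Ndufa4 to 218.5 TPM for Ndufs3, a core subunit. Complex II, the succinate dehydrogenase of the citric acid cycle, spanned the lowest range, from 390 TPM for the iron-sulphur subunit SdhB and 227 TPM for the membrane anchor SdhD to 128 TPM for the flavoprotein Sdha. Cox15, the heme A synthase needed to assemble complex IV, stood at 49.03 TPM.

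**Figure D1:**
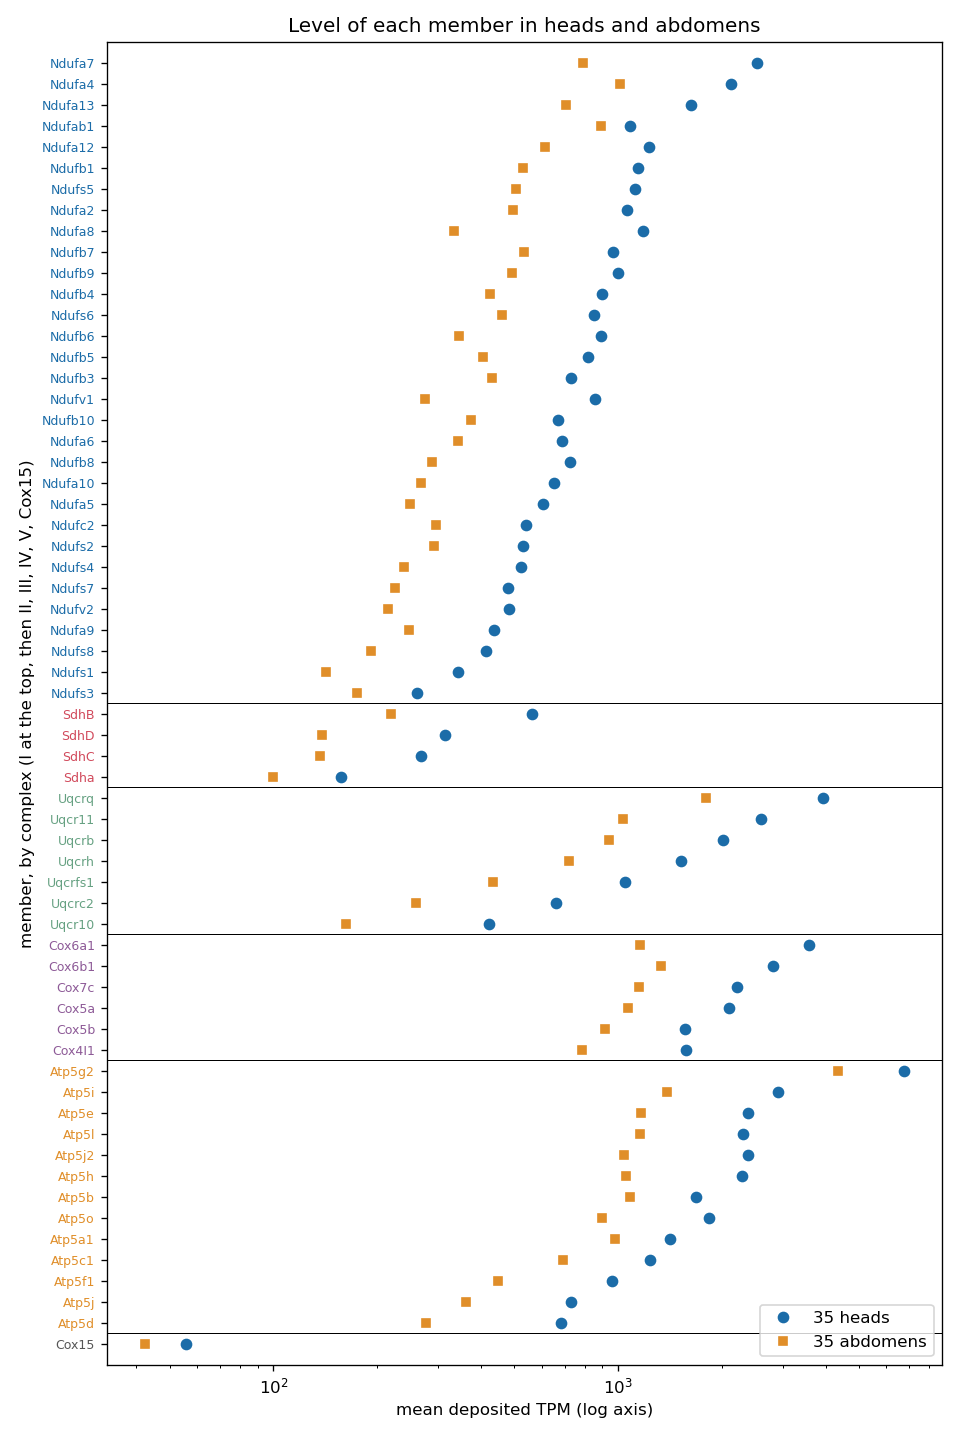
Mean deposited TPM of each of the 62 members (log axis) over 35 heads and 35 abdomens, ordered by complex and by mean level. All members had a higher mean in heads, and Atp5g2 reached 6756 TPM in heads and 4355 TPM in abdomens (4207 TPM without C46).

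The members together made up 5.82 to 11.7% of all TPM in heads and 2.86 to 6.45% in 34 abdomens, with 10.8% in C46. On the CPM scale of the head fit, their summed level averaged 13440 ± 1959 CPM in F14 triploid and 15240 ± 1199 CPM in F14 diploid female heads, against 26840 ± 3210 CPM in F2 triploid and 30170 ± 4172 CPM in F2 diploid female heads (SD, n = 4, 4, 5 and 4). The 8 libraries of F14 females, at 11240 to 16850 CPM, all lay below the 9 of F2 females, at 23040 to 33510 CPM. Male heads spread more widely within each group. Their sums averaged 24070 ± 8518 CPM in F15 diploids, 26870 ± 12130 CPM in F15 haploids, 27740 ± 14310 CPM in F5 diploids and 25240 ± 6596 CPM in F5 haploids (SD, n = 4, 4, 5 and 5). F5 diploid male heads held 2 high libraries, C41 and C45, at 42780 and 43220 CPM, and 2 low ones at 14770 and 14980 CPM.

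On the scale of the abdomen fit, most groups lay close to each other. Female abdomens averaged 14650 ± 6749 CPM in F14 triploids, 10570 ± 793 CPM in F14 diploids, 13710 ± 969 CPM in F2 triploids and 14650 ± 1097 CPM in F2 diploids (SD, n = 4, 4, 5 and 4). The large SD of F14 triploids came with 1 library, C69, at 24780 CPM, while the other 3 lay at 11260, 11280 and 11300 CPM. C69 also held 5147 CPM of the 3 muscle markers, against 738 to 1203 CPM in those 3. Of this sum 4663 CPM were Tm1, while Tm2 did not follow, at 94.2 CPM in C69 against 79.6, 80.1 and 97.5 CPM. Male abdomens averaged 11620 ± 988 CPM in F15 diploids, 16450 ± 7155 CPM in F15 haploids, 19970 ± 10850 CPM in F5 diploids and 15220 ± 2196 CPM in F5 haploids (SD, n = 4, 4, 5 and 5). Without C46, which stood at 39010 CPM, the F5 diploid mean was 15220 ± 2430 CPM (SD, n = 4). In F15 haploids C87 and C86 had the highest sums, at 26470 and 16660 CPM, and also the highest muscle marker sums, at 6911 and 4968 CPM. Tm2 was high in C87, at 993 CPM, but not in C86, at 63.1 CPM.

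**Figure D2:**
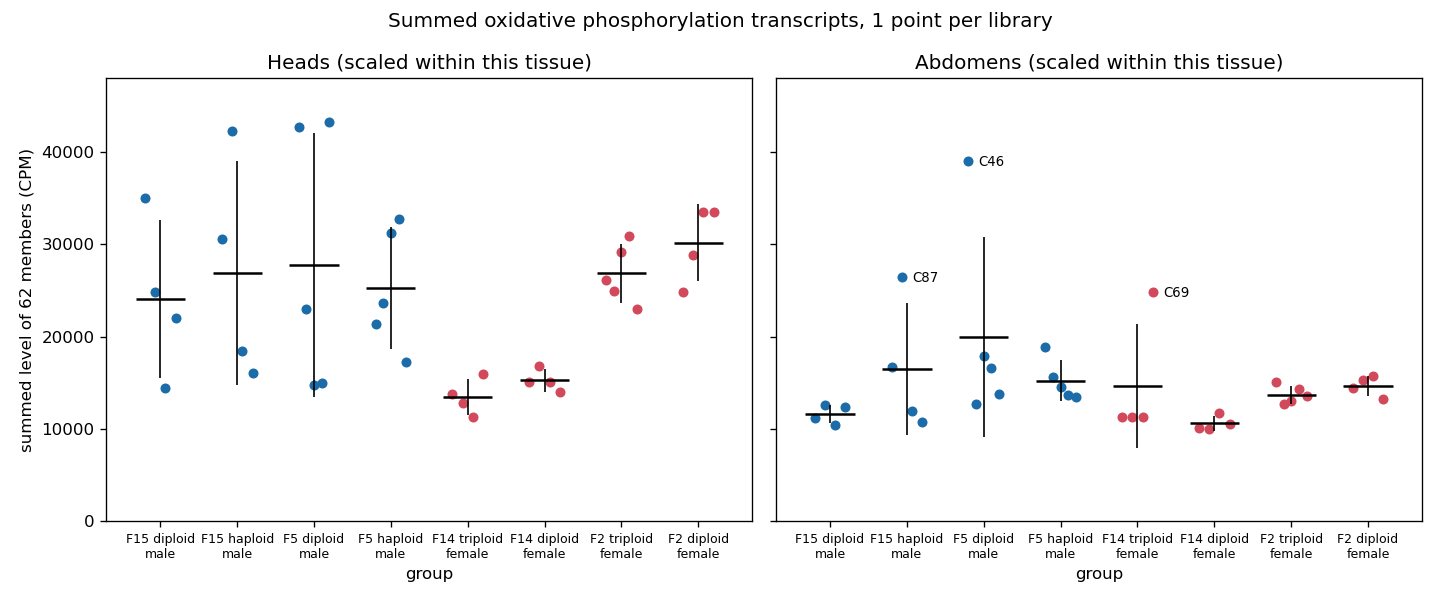
Summed level of the 62 members in CPM, 1 point per library, with the group mean (horizontal bar) and SD (vertical bar), males in blue and females in red. Each tissue is scaled on its own, so the panels are not compared with each other. Heads of F14 females lie between 11240 and 16850 CPM, below all heads of F2 females.

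Female heads of F14 were compared with those of F2, averaging over both ploidies, to follow the line over generations. Among the comparisons of generation with both ploidies averaged, it had the most members called. In F14, 56 of 62 members were lower and 1 was higher (edgeR quasi-likelihood test, adjusted p below 0.05, over 11785 genes). Of all genes tested, 23.9% were called lower and 22.6% higher. The median log2 change of the members was -1.11, against 0.02 for all genes tested. Each complex took part, with 28 of 31 genes lower in complex I (median log2 change -1.07), 3 of 4 in complex II (-0.79), 7 of 7 in complex III (-1.35), 6 of 6 in complex IV (-1.11) and 12 of 13 in complex V (-1.21). In 50 members no F14 library overlapped an F2 library, and all 50 were lower in F14. Of all genes tested, 9.39% did not overlap, 6.22% with F14 the lower. Generation and time of collection go together in the design and cannot be told apart, and in bulk tissue neither can fewer cells of a type and less RNA per cell.

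Atp5i had the largest fall of all members. Its levels were 91.4, 108, 112 and 143 CPM in F14 triploid and 126, 135, 136 and 156 CPM in F14 diploid heads, against 342, 426, 470, 527 and 565 CPM in F2 triploid and 376, 450, 612 and 625.4 CPM in F2 diploid heads. The highest F14 library thus lay well below the lowest F2 library, and the log2 change was -1.97 (SE 0.29, edgeR adjusted p = 7.35e-06). Uqcr10 stood at 51.2, 80.9, 85.5 and 91.9 CPM in F14 triploid and 66.3, 67.3, 80.2 and 89.6 CPM in F14 diploid heads, against 180, 244, 261, 270 and 327 CPM in F2 triploid and 180, 222, 288 and 326 CPM in F2 diploid heads. These groups did not overlap either, with a log2 change of -1.74 (SE 0.24, edgeR adjusted p = 5e-06). Ndufa2, an accessory subunit in the matrix arm of complex I, had 30.1, 30.8, 34.98 and 47.03 CPM in F14 triploid and 31.5, 34.6, 35.3 and 38.4 CPM in F14 diploid heads, against 89.3, 110, 132, 133 and 150 CPM in F2 triploid and 74.2, 100, 127 and 136 CPM in F2 diploid heads. All F14 libraries were lower, with a log2 change of -1.71 (SE 0.24, edgeR adjusted p = 6.06e-06).

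Uqcrfs1, the Rieske iron-sulphur protein of complex III, had a log2 change of -0.94 (SE 0.19, edgeR adjusted p = 0.000312), and the alpha subunit of the ATP synthase, Atp5a1, one of -0.57 (SE 0.23, edgeR adjusted p = 0.0441). The 5 members not called were Atp5b, the catalytic beta subunit, with a log2 change of -0.51 (SE 0.23, edgeR adjusted p = 0.0711), Ndufa5 with -0.49, Ndufb7 with -0.17, Ndufs1 with -0.35 and Sdha. Sdha stood at 175, 206, 210 and 221 CPM in F14 triploid and 218, 235, 252 and 255 CPM in F14 diploid heads, against 196, 198, 210, 214 and 226 CPM in F2 triploid and 293, 296, 306 and 310 CPM in F2 diploid heads. In triploids the Sdha libraries of both generations overlapped, in diploids they did not, and the averaged log2 change was -0.19 (SE 0.16, edgeR adjusted p = 0.357). Cox15 was the only member to rise, with a mean of 44.7 CPM in F14 and 33.8 CPM in F2 heads (log2 change 0.41, SE 0.14, edgeR adjusted p = 0.017).

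**Figure D3:**
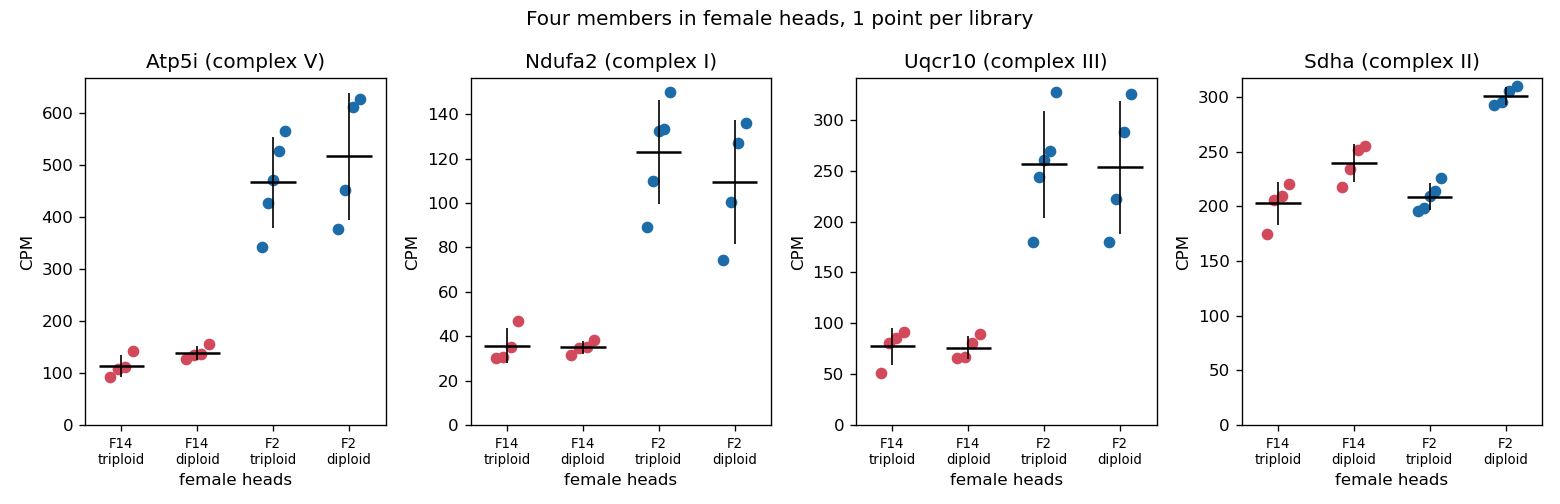
Levels of Atp5i, Ndufa2, Uqcr10 and Sdha in CPM in the 4 groups of female heads, 1 point per library, with mean (horizontal bar) and SD (vertical bar), F14 in red and F2 in blue. For Atp5i, Ndufa2 and Uqcr10 all F14 libraries lie below all F2 libraries, while Sdha overlaps.

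The fall was present in each ploidy taken alone, in comparisons added after the data were seen. In triploid females 50 members were lower in F14 than in F2 and none was higher (21.4% of genes called lower and 22.2% higher), with a median log2 change of -1.12. In diploid females 48 were lower and none was higher (9.78% of genes called lower and 6.6% higher), with a median of -1.10. Both ploidies shared 46 of these, out of 50 in triploids and 48 in diploids, and of all genes 6.08% were called lower in both. The difference between the ploidies in this change was called for no member by edgeR (of all genes 6.25% were called), nor by DESeq2, and none had an unadjusted p under 0.05. With length offsets 14 members were lower and 3 higher in triploids, and 33 lower and 1 higher in diploids. The share of all genes called with offsets is not given here, so these counts cannot be set against it. The count in diploid females was 24 without C74, 26 without C71 or C23, 27 without C25 and 30 without C73.

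Most members are short transcripts, and the size of the change went with transcript length in the whole data set. By the ratio of deposited counts to TPM, 58 of the 62 members fell in the shortest 3 of 10 equal bins of the genes tested in heads. In F14 against F2 female heads the median log2 change of all genes ran from -0.55 in the shortest bin to 0.34 in the longest. Of the members, 58 lay below the median of their own bin and 4 above it. The 42 members in the shortest bin had a median of -1.19. Sdha, the longest member at 1.82 times the length of the median gene, changed least of the 4 subunits of complex II with both ploidies averaged. In triploids alone it also changed least, at -0.04. In diploids alone another subunit changed less, at -0.30 against -0.33 for Sdha. With offsets that remove the trend on length from each library, an alternative added after the data were seen, 41 members were lower and 3 higher, with a median of -0.51. Tested with limma on log2(TPM + 1), 52 were lower and 2 higher. TPM scales each gene by its own length, which does not remove a trend on length that differs between libraries. The share of all genes called is given neither for the offsets nor for limma, so these counts cannot be set against it.

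**Figure D4:**
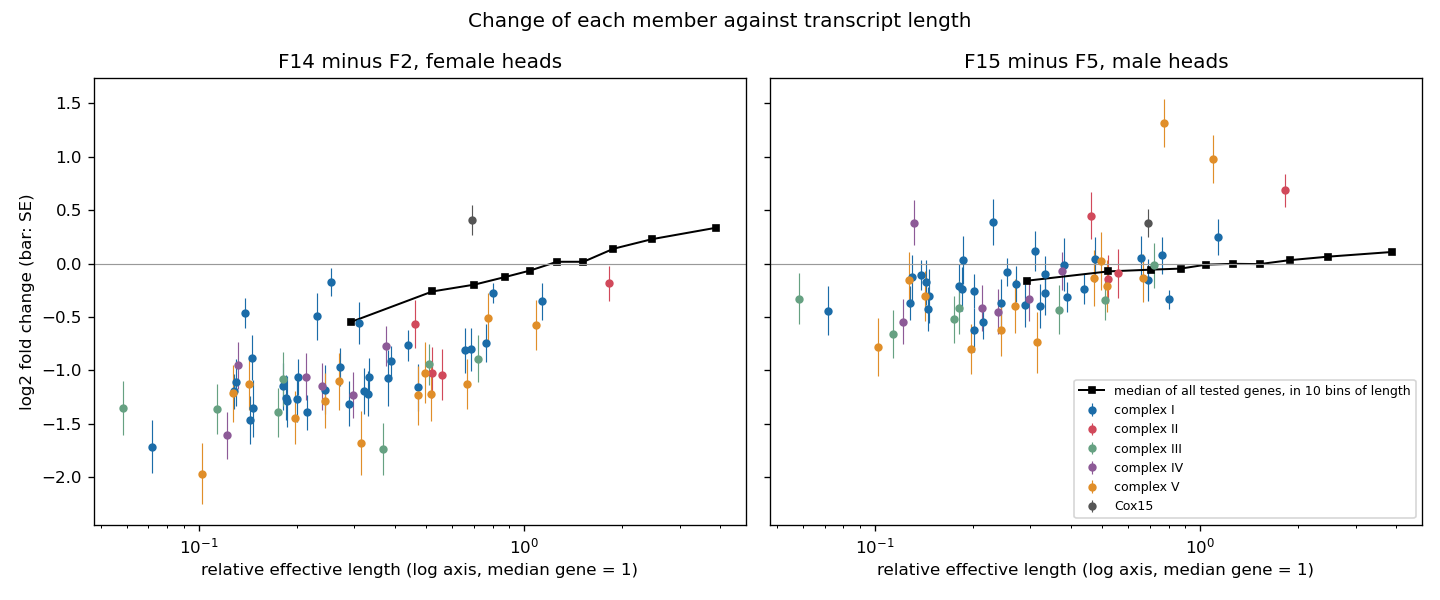
Log2 change of each member (points coloured by complex, bars show the SE) against relative effective length (log axis, median gene = 1), for F14 minus F2 female heads (left) and F15 minus F5 male heads (right), with the median of all tested genes in each of 10 bins of length (black squares). In female heads 58 of 62 members lie below the median of their bin, and in male heads 40 lie below and 22 above, with Atp5b the highest at a log2 change of 1.32.

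Other mitochondrial genes in the table were few. Cytochrome c1 of complex III, Cyc1, which the symbol rule does not take, was lower in F14 female heads (log2 change -0.99, SE 0.25, edgeR adjusted p = 0.00227). Of 4 genes of the mitochondrial ribosome 3 were lower (median log2 change -0.41), and of 3 genes of mitochondrial protein import 2 were lower. Both mitochondrial carriers found were lower with the ploidies averaged, but Slc25a1 went opposite ways in them. In triploids it stood at 83.4 to 119 CPM in F14 against 156 to 225 CPM in F2. In diploids it was higher in F14, at 147 to 190 CPM against 116 to 136 CPM. Ogdh of the citric acid cycle was not called (log2 change -0.24, edgeR adjusted p = 0.148). The 4 genes of the cytosolic ribosome in the table were all lower as well, with a median log2 change of -1.13. None of the 3 muscle markers was called. Summed, these were at 565 to 1225 CPM in F14 triploid and 726 to 1115 CPM in F14 diploid heads, against 484 to 609 CPM in F2 triploid and 1719 to 2250 CPM in F2 diploid heads. F2 triploid heads thus had the lowest muscle sums together with member sums of 23040 to 30940 CPM. Markers of sensory cells moved with generation too. The eye markers Lop1 and white were lower in F14 (log2 changes -0.90 and -4.00) and HisCl1 was not called. White was near 0 outside F2 diploids, with means of 0 CPM in F14 triploid, 0.142 CPM in F14 diploid, 0.053 CPM in F2 triploid and 4.25 CPM in F2 diploid heads. The eye markers summed to 991 to 2712 CPM in F14 triploid and 3188 to 3672 CPM in F14 diploid heads, against 2434 to 5235 CPM in F2 triploid and 4683 to 8780 CPM in F2 diploid heads. Or1, the marker listed for olfactory sensory neurons, was higher in F14 (log2 change 1.81, edgeR adjusted p = 0.0129). The part of these cell types, and of transcript length, in the fall of the members was not tested.

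Male heads of F15 were set against those of F5 in the same way. Here 8 members were lower and 4 higher (16.7% of all genes were called lower and 17.8% higher), and the median log2 change was -0.22. In both directions the members were called less often than all genes. The 4 that rose were Atp5b (log2 change 1.32, SE 0.23, edgeR adjusted p = 5.7e-05), Atp5a1 (0.98, SE 0.23, edgeR adjusted p = 0.0013), Sdha (0.69, SE 0.16, edgeR adjusted p = 0.00129) and Cox15 (0.38, SE 0.13, edgeR adjusted p = 0.0278). They code for the catalytic beta subunit and the alpha subunit of the ATP synthase, the catalytic subunit of complex II and an assembly enzyme. The 8 that fell were Atp5i, Atp5j and Atp5j2 of complex V, Cox6a1 of complex IV, Ndufa13, Ndufb6 and Ndufv1 of complex I, and Uqcrq of complex III, with log2 changes of -0.80 to -0.34. Of these Ndufv1 carries the NADH-binding site and the others are accessory or small structural subunits.

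Atp5b stood at 857, 1813, 2393 and 3499 CPM in F15 diploid and 1047, 1386, 2918 and 3454 CPM in F15 haploid male heads, against 573, 685, 1070, 1217 and 1358 CPM in F5 diploid and 611, 684, 756, 812 and 994 CPM in F5 haploid male heads. In haploids every F15 library was above every F5 library, and in diploids the groups overlapped. Atp5i stood at 121, 167, 190 and 275 CPM in F15 diploid and 132, 145, 245 and 442 CPM in F15 haploid heads, against 165, 175, 264, 678 and 699 CPM in F5 diploid and 198, 243, 278, 481 and 496 CPM in F5 haploid heads, with overlap in both ploidies (log2 change -0.78, SE 0.27, edgeR adjusted p = 0.0245). Of the 18 male heads, C91, C82 and C81 had the highest muscle marker sums, at 8232, 7760 and 5959 CPM. They also had the 3 highest values of Atp5b, at 3499, 3454 and 2918 CPM. Tm2 stood at 148, 57.6 and 210 CPM in these libraries, so it was not high in C82. C41 and C45, F5 diploids with 3828 and 3400 CPM of muscle markers, had 1217 and 1358 CPM of Atp5b, below the 1813 CPM of C94, an F15 diploid with 2301 CPM of muscle markers. Of the 3 muscle markers Tm1 rose in F15 (log2 change 1.15, edgeR adjusted p = 0.0313), as did Or1 (3.34, edgeR adjusted p = 8.56e-05), and their part in the result was not tested. Counts depended on single libraries, with 3 higher and 22 lower without C82, 4 higher and 3 lower without C41, and 5 higher and 3 lower without C45. Fitted on the 4 groups of male heads alone, 3 members were higher and 1 lower.

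The generation change of female heads was set against that of male heads in 1 contrast, added after the data were seen. For 37 members it was more negative in females and for none more positive (11.5% of genes called lower and 8.26% higher), with a median difference of -0.87 on the log2 scale. The largest differences were in Atp5b (-1.83, SE 0.33, edgeR adjusted p = 0.000699) and Atp5a1 (-1.55, SE 0.32, edgeR adjusted p = 0.0023). The count was 16 without C82, 19 without C91, 24 without C25 and 18 with length offsets (17 lower and 1 higher). The 2 intervals are not the same, F2 to F14 in females and F5 to F15 in males.

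In female abdomens 5 members were lower and 1 higher in F14 than in F2 (2.61% of genes called lower and 8.63% higher), with a median log2 change of -0.24. Those lower were Ndufab1, Ndufa2 and Ndufs6 of complex I and Atp5i and Atp5j of complex V, and Ndufa5 was higher (log2 change 0.78, SE 0.23, edgeR adjusted p = 0.0239). Ndufab1, the mitochondrial acyl carrier protein, stood at 187, 226, 228 and 259 CPM in F14 triploid and 170, 181, 185 and 209 CPM in F14 diploid abdomens, against 330, 344, 364, 379 and 418 CPM in F2 triploid and 311, 326, 352 and 373 CPM in F2 diploid abdomens. These groups did not overlap (log2 change -0.79, SE 0.15, edgeR adjusted p = 0.00141). The number called was 17 without C69, 3 without C30 or C66, 12 with C46 out of the fit and 1 with length offsets.

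In male abdomens 16 members were lower and 1, Cox15, was higher in F15 than in F5 (9.73% of genes called lower and 7.85% higher), with a median log2 change of -0.32. Complex I gave 6 of these, complex III 4, complex V 4 and complex IV 2, while no gene of complex II was called. The most negative changes were in Atp5i (-1.20, SE 0.27, edgeR adjusted p = 0.00252) and Atp5j, the coupling factor 6 (-1.06, SE 0.24, edgeR adjusted p = 0.00339). Of the 5 members lower in female abdomens, 4 were also among the 16 lower in male abdomens, and of all genes 1.15% were called lower in both. With C46 left out 8 were lower and 1 higher, with a median of -0.18, and the changes of Atp5i and Atp5j were -0.95 and -0.79 (edgeR adjusted p = 0.00383 and 0.00478), and with length offsets in addition 1 was lower and 7 higher. The count was 29 without C87, and 8 to 11 without C88, C89, C96 or C98.

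Triploid and diploid females, and diploid and haploid males, were compared to see which transcripts change with an additional chromosome set. In heads no member was called by edgeR in any of the 4 comparisons. Of all genes, 18.6% were called in F2 females, 20.9% in F14 females, 0.424% in F5 males and 0.0255% in F15 males. The median log2 change of the members in triploid against diploid female heads was -0.11 in F2 and -0.15 in F14, and in diploid against haploid male heads 0.11 in F5 and -0.22 in F15. Complex V had a median of -0.27 in F2 and -0.20 in F14 female heads. At an unadjusted p under 0.05 there were 1 member in F2 females, 2 in F14 females and none in males. DESeq2 called 1 member lower in F14 females and none in the other heads. Fitted on the 2 groups compared alone, 8 members were lower in F2 and 10 in F14 triploid female heads. The share of all genes called in these fits is not given here, so these counts cannot be set against it. The median SE of a member was 0.28 to 0.32, and members with changes of up to -0.53 in F2 and -0.80 in F14 female heads were not called.

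In abdomens of F14 females 6 members were higher in triploids and none was lower (18.1% of all genes were called higher and 1.77% lower). Members were thus called higher less often than all genes. Their median log2 change was 0.57, against 0.17 for all genes. The 6 were Uqcrq, Uqcr11 and Uqcr10 of complex III, Cox5a of complex IV, Atp5e of complex V and Ndufa4. Uqcrq stood at 77.7, 151, 158 and 358 CPM in triploids and 70.8, 70.95, 75.97 and 96.2 CPM in diploids (log2 change 1.25, SE 0.33, edgeR adjusted p = 0.00868), and the highest diploid library exceeded the lowest triploid one. Cox5a, a nuclear subunit on the matrix side of cytochrome c oxidase, had 188, 200, 206 and 503 CPM in triploids and 152, 153, 153 and 180 CPM in diploids, without overlap (log2 change 0.78, SE 0.27, edgeR adjusted p = 0.0386). The highest triploid value is that of C69, the library with a high muscle marker sum, in both genes. Of the muscle markers 2 of 3 were also higher in triploids, with a median log2 change of 1.56, and their part was not tested. Without C69 no member was called and the median was 0.16. Without C68 22 were higher and 1 lower, without C76 or C79 2 were higher and without C77 1 was. With length offsets 1 was lower and none higher, with a median of -0.13, and with C46 left out 19 were higher. Limma on log2(TPM + 1) called 1 lower, and fitted on the 2 groups alone none was called.

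In F2 female abdomens no member was called (7.49% of genes were), with a median log2 change of -0.15 and 2 members at an unadjusted p under 0.05. DESeq2 called none, and edgeR without C46 called none. The difference between the ploidy effects of F14 and F2 was called for 8 members, all more positive in F14, with a median of 0.74. Of all genes 24.8% were called higher and 8.04% lower, so members were called higher less often than all genes. Among the 8, Uqcr11 had a difference of 1.76 (SE 0.55, edgeR adjusted p = 0.0161) and SdhB one of 1.48 (SE 0.56, edgeR adjusted p = 0.0415). This count was 3 without C69, with 2 positive and 1 negative, 5 without C29, C39 or C76, 24 without C68 and 21 with C46 out of the fit. With length offsets the sign of the median turned to -0.41, with 1 member called lower, or 9 called lower when C46 was left out too.

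Diploid against haploid male abdomens gave no call in F5 (0.382% of genes were called), with a median log2 change of 0.38. Without C46 the median was 0.02 and again no member was called. At an unadjusted p under 0.05 there were 8 members, and DESeq2 called 2 higher. In F15 Sdha and Atp5b were lower in diploids (12.3% of genes called lower and 5.16% higher). Members were thus called lower less often than all genes. Sdha stood at 94.8, 107, 110 and 116 CPM in F15 diploid and 155, 161, 266 and 388 CPM in F15 haploid abdomens, without overlap (log2 change -1.18, SE 0.31, edgeR adjusted p = 0.00788). Atp5b had 427, 543, 568.5 and 622 CPM in diploids against 635, 873, 1408 and 2213 CPM in haploids (log2 change -1.25, SE 0.41, edgeR adjusted p = 0.0307). The haploid spread was the wider one. Its 2 highest libraries for both genes, C87 and C86, were also the 2 with the highest muscle marker sums in that group. Of the muscle markers 1 of 3 was lower in diploids, with a median of -1.27, and their part was not tested. Without C87 no member was lower and 1 was higher. The number called was 7 without C89, 1 without C86, C96, C97 or C98, and 7 with C46 out of the fit. Both genes also gave the only calls for the difference between the ploidy effects of F15 and F5, at -1.70 for Sdha (SE 0.41, edgeR adjusted p = 0.018) and -2.22 for Atp5b (SE 0.54, edgeR adjusted p = 0.0181) (3.15% of genes called lower and 1.02% higher), and without C87 no member was called, while without C46 both were, at -1.32 for Sdha and -1.66 for Atp5b. In male heads the same difference was called for none (0.00849% of genes), none had an unadjusted p under 0.05, and DESeq2 called none.

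Heads were compared with abdomens within each sex and ploidy, averaging over both generations, on counts scaled in 1 fit per sex. Most members were higher in heads in each comparison. In triploid females 53 were higher and 2 lower (42.6% of genes called higher and 40.1% lower, median log2 difference 0.78), in diploid females 57 higher and 1 lower (46.9% of genes higher and 39.1% lower, median 1.06), in diploid males 42 higher and none lower (33.7% of genes higher and 32.7% lower, median 0.64) and in haploid males 55 higher and none lower (31.6% of genes higher and 33.3% lower, median 0.72). The median of all genes was 0.12 in triploid females, 0.29 in diploid females, 0.02 in diploid males and -0.04 in haploid males. In all 4 kinds of wasp 37 members were called higher, as were 19.2% of the 11720 genes tested in both sexes. With C46 left out 54 members were higher in heads of diploid males, with a median of 0.81, and 55 in heads of haploid males, with a median of 0.72. The count in diploid males was 25 without C41 and 25 without C45, and in haploid males 31 without C82. With length offsets and C46 left out, all 62 members were higher in both kinds of male.

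Among the largest differences were those of the complex I subunits Ndufa7 and Ndufa8 and of Cox6a1. Ndufa7 stood at 250, 280, 309 and 315 CPM in F14 and 297, 366, 441 and 452 CPM in F2 diploid female heads, against 54.3, 57.8, 64.7 and 74.4 CPM in F14 and 64.5, 82.9, 87.5 and 88.9 CPM in F2 diploid female abdomens. Every head library lay far above every abdomen library (log2 difference 2.23, SE 0.21, edgeR adjusted p = 3.19e-11). In haploid males it had 269, 276, 288 and 400 CPM in F15 and 244, 352, 355, 356 and 432 CPM in F5 heads, against 119, 121, 129 and 213 CPM in F15 and 123, 132, 139, 164 and 176 CPM in F5 abdomens, again without overlap (1.16, SE 0.19, edgeR adjusted p = 3.11e-06). Cox6a1 had 210, 235, 252 and 278 CPM in F14 and 546, 687, 856 and 868 CPM in F2 diploid female heads, against 73.3, 73.6, 78.5 and 109 CPM in F14 and 137, 180, 182.1 and 195 CPM in F2 diploid female abdomens, and no head library fell among the abdomens (1.82, SE 0.20, edgeR adjusted p = 1.4e-09). Ndufa8, an accessory subunit on the intermembrane side of complex I, had 288, 289, 310 and 409 CPM in F14 and 369, 473, 512, 547 and 597 CPM in F2 triploid female heads, against 95.7, 108, 111 and 231 CPM in F14 and 48.5, 113, 125, 130 and 131 CPM in F2 triploid female abdomens (1.72, SE 0.16, edgeR adjusted p = 5.99e-11). Its heads and abdomens did not overlap, and the highest abdomen was C69.

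Uqcr11 (1.80, SE 0.23, edgeR adjusted p = 2.57e-08) in diploid females and Ndufv1 (1.71, SE 0.11, edgeR adjusted p = 6.33e-15) in triploid females were also separated without overlap. The 6 germ line genes were all lower in female heads, with medians of -7.53 in triploids and -7.89 in diploids, and their part was not tested.

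Some members did not follow. Ndufab1 was lower in heads of triploid females (log2 difference -0.43, SE 0.11, edgeR adjusted p = 0.00102) and of diploid females (-0.33, SE 0.12, edgeR adjusted p = 0.0125). Sdha was lower in heads of triploid females (-0.21, SE 0.07, edgeR adjusted p = 0.0088) and not called in diploid females. Atp5a1, Atp5b and Cox15 were called in neither kind of female. In females complex V had the smallest median in triploids (0.48) and in diploids (0.90) of the 5 complexes, and complex III the largest (1.21 and 1.41). In males complex IV had the smallest median, at 0.47 in diploids and 0.60 in haploids. Of other lists, the 4 cytosolic ribosome genes were all lower in diploid female heads, with a median of -2.33, and 3 of 4 mitochondrial ribosome genes were lower. The shortest genes were on the whole lower in these heads and the longest higher, with medians of -0.32 and 1.23, and 59 of 62 members lay above the median of their bin of length.

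Males and females were compared within a tissue, averaging over generations, which sets males of F15 and F5 against females of F14 and F2. In abdomens, 42 members were higher and 2 lower in diploid males than in diploid females (49.5% of all genes were called higher and 34.9% lower), and 38 higher and 2 lower in haploid males than in diploid females (50.4% higher and 35.1% lower). These 2 comparisons share the diploid females. The median log2 difference was 0.57 in diploid males and 0.52 in haploid males, against 0.61 and 0.60 for all genes. The median of the members thus lay below that of all genes. The 6 genes listed for the female germ line and embryo patterning were all lower in both kinds of male, summing to 13.9 to 21.95 CPM in F15 diploid male and 1127 to 1324 CPM in F14 diploid female abdomens, and 2 of 3 muscle markers were higher. The part of these cell types was not tested. Ndufa4 and Ndufa7 had the largest log2 differences among members without overlap, at 1.39 and 1.75 in diploid males and 1.27 and 1.32 in haploid males. Without C46 the differences in diploid males were 1.315 for Ndufa4 and 1.578 for Ndufa7. Complexes III and IV were called most often, with 6 of 7 and 6 of 6 genes higher in both kinds of male, and complex V least, with 3 of 13. Ndufv1 had 267, 272, 284 and 295 CPM in F15 diploid, 264, 285, 323 and 438 CPM in F15 haploid, 330, 336, 368, 376 and 745 CPM in F5 diploid and 299, 344, 353, 385 and 418 CPM in F5 haploid male abdomens, against 131, 132, 135 and 154 CPM in F14 and 173, 192, 193 and 196 CPM in F2 diploid female abdomens. Males and females did not overlap, with log2 differences of 1.10 in diploid males (SE 0.16, edgeR adjusted p = 2.97e-07) and 1.09 in haploid males (SE 0.16, edgeR adjusted p = 3.78e-07). The value of 745 CPM is that of C46, and without it the difference of Ndufv1 in diploid males was 0.96.

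Cox15 and Sdha were the members lower in male abdomens with C46 in the fit. Cox15 had 20.7, 25.5, 26.04 and 27.005 CPM in F15 and 12.5, 12.9, 14.4, 15.1 and 16.5 CPM in F5 haploid male abdomens, against 44.8, 45.6, 50.5 and 57.3 CPM in F14 and 31.4, 34.1, 35.6 and 42.5 CPM in F2 diploid female abdomens. Here too the sexes did not overlap (log2 difference -1.16, SE 0.17, edgeR adjusted p = 3.46e-07). Sdha was lower by a log2 difference of -0.79 in diploid males (SE 0.21, edgeR adjusted p = 0.00116) and -0.45 in haploid males (SE 0.21, edgeR adjusted p = 0.0468). Without C46 the difference of Sdha in diploid males was -0.97. With C46 left out 32 members were higher and 5 lower in diploid males and 41 higher and 2 lower in haploid males. The 5 were Cox15 and Sdha with Atp5a1 (log2 difference -0.72, edgeR adjusted p = 0.00477), Atp5b (-0.85, edgeR adjusted p = 0.00168) and Ndufab1 (-0.37, edgeR adjusted p = 0.0114). With length offsets the count in haploid males was 9 higher and 9 lower, and with offsets and without C46 that in diploid males turned to 15 higher and 16 lower. Limma on log2(TPM + 1) gave 14 higher and 5 lower in haploid males and 9 higher and 9 lower in diploid males.

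In heads the sexes differed in few members. In diploid males 1 member, Ndufv1, was higher than in diploid females (log2 difference 0.32, SE 0.10, edgeR adjusted p = 0.0298, with 5.75% of genes called higher and 3.25% lower), and without C21, C22, C71, C74 or C91 in turn no member was called. In haploid males 5 members of complex I were higher and none lower (17.7% of genes called higher and 14.7% lower). They were Ndufab1 (0.73, SE 0.23, edgeR adjusted p = 0.0154), Ndufa4, Ndufs7, Ndufv1 and Ndufv2, with differences of 0.37 to 0.73. The count was 1 without C82, 2 without C21, C22 or C54, 3 without C71 or C74, and limma on log2(TPM + 1) gave 1 higher and 7 lower.

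**Figure D5:**
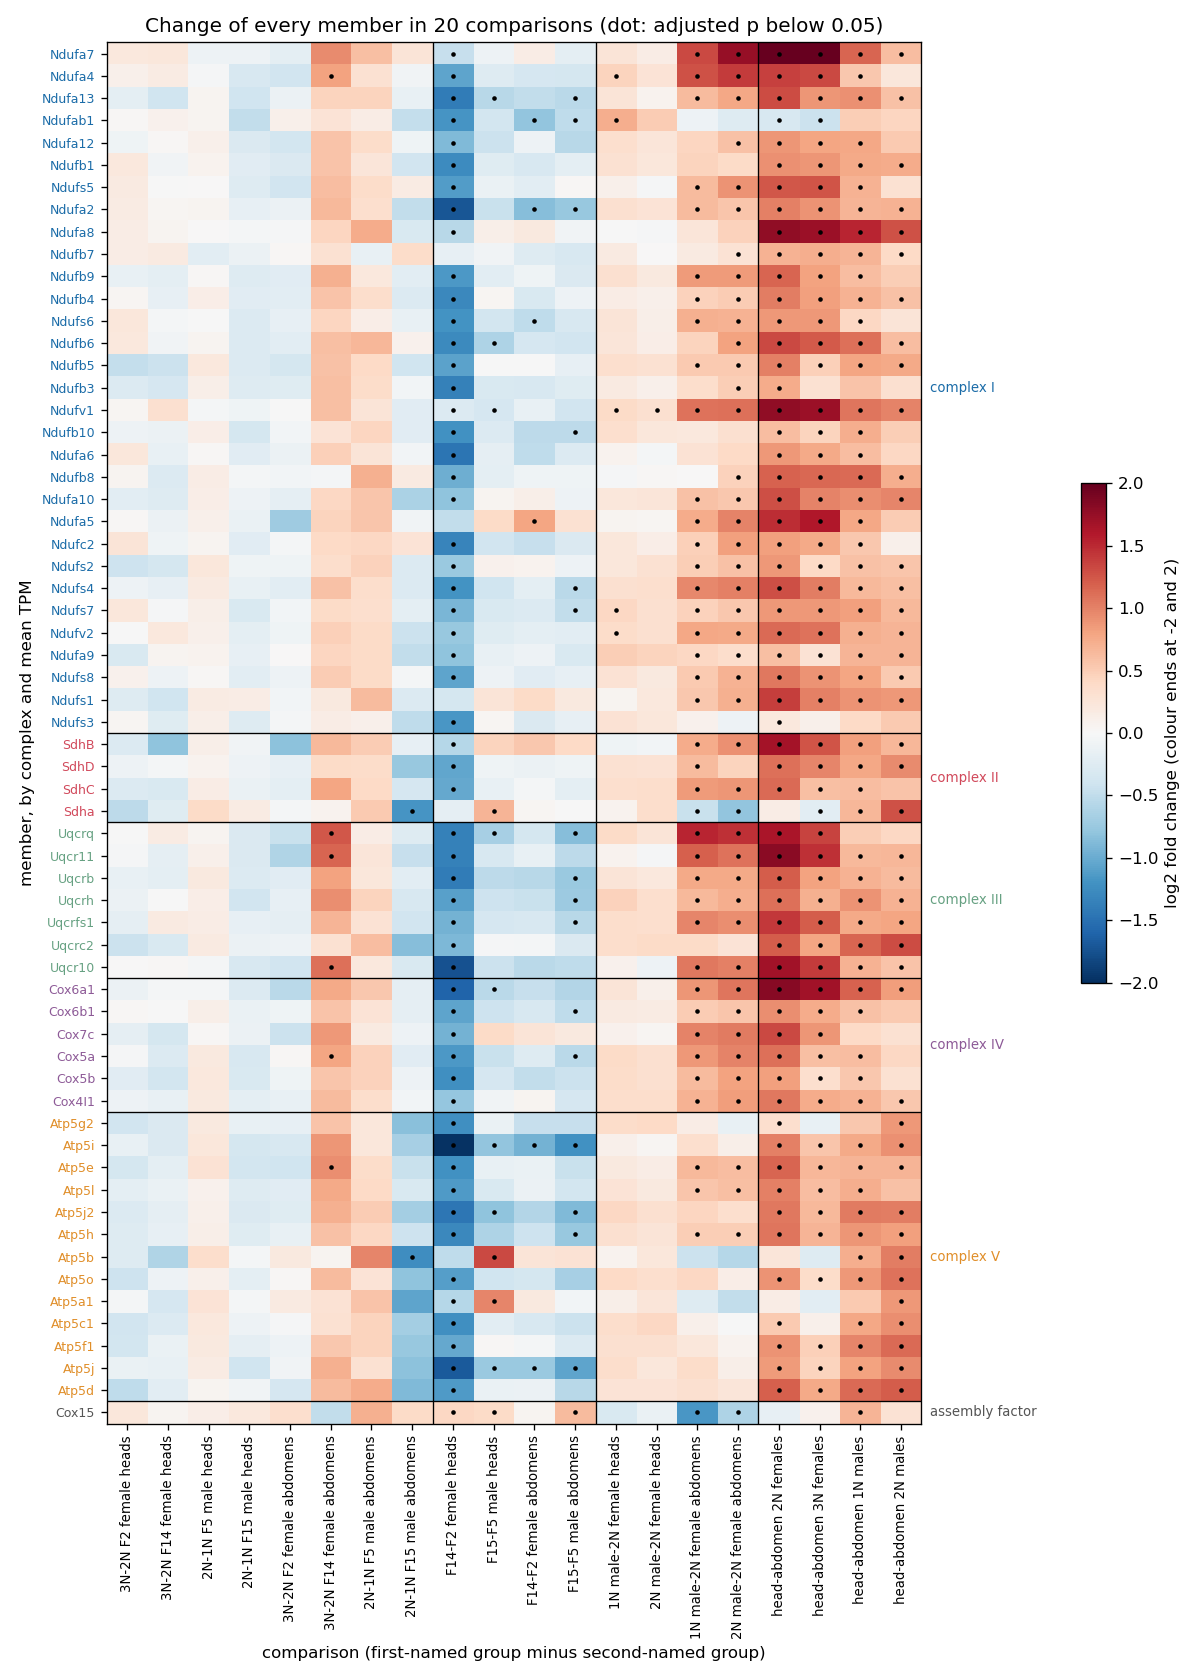
Log2 change of each of the 62 members (rows, by complex and mean TPM) in 20 comparisons (columns, the group named in the front minus the other; 1N haploid, 2N diploid, 3N triploid). Red is higher and blue lower in the group named in the front, and a dot marks an adjusted p below 0.05. In F14 minus F2 female heads 56 members are lower and Cox15 is higher, and the 4 columns of heads minus abdomens are mostly red.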

How the data were processed

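The authors deposited expected counts for 14621 genes and TPM for 14613 genes in 70 libraries of 16 groups. Per the submitters' processing notes, reads were processed with STAR 2.7.11a and RSEM 1.3.1, and the sources used here do not give a genome build. Counts were rounded to whole numbers (18.2% were not whole). RSEM shares reads among similar genes, so near-identical copies carry that uncertainty.

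Counts were tested with edgeR 4.0.16 (quasi-likelihood F test after TMM scaling and filterByExpr) under R 4.3.3, in 4 fits: heads, abdomens, females, males. P-values were adjusted by Benjamini-Hochberg over all genes tested, and called at 0.05. SE is the log2 change divided by the root of F. Printed CPM use effective library sizes of the fit concerned. The tests were checked on simulated counts. Alternatives were RLE size factors, no filter, DESeq2 1.42.0, only the groups compared, limma 3.58.1 on log2(TPM + 1), and leaving out each library. Length offsets and fits without C46 were added after the data were seen. Counts of members called under any of these are given without the share of all genes called.

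Members named are, per complex, the 2 with the highest and the 1 with the lowest mean TPM, and, per comparison and direction, up to 3 called members of largest change whose libraries did not overlap. Members called in the same direction at both generations of a sex and tissue could be named too, and where 5 or fewer were called, all. Members outside this rule (such as Atp5a1 and Uqcrfs1 in female heads, Atp5i and Atp5b in male heads) were chosen after their values were seen. The members and gene lists were chosen with earlier results of these data known. No 2 libraries of a group were copies (lowest chi-square per gene 4.91 over 120 pairs).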

Additional observations from a re-analysis of the deposited data

Results flagged for a closer look

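Of 142 groups of 4 or 5 libraries looked at (a complex sum or a named member in 1 group), 19 held a library far from the others; chance gives about 1 in 20 for independent groups, which these are not, since C69 and C46 each enter through several sums and members. Library C69, an F14 triploid female abdomen, stood high in all 5 complex sums, at 6019 CPM for complex I, 953.5 CPM for complex II, 1903 CPM for complex III, 2594 CPM for complex IV and 13260 CPM for complex V. It was also high in Cox5a, at 502.86 CPM, and in Ndufa8, at 231.05 CPM. C46, labelled an F5 diploid male abdomen and holding eye transcripts, stood high in complex I at 10700 CPM, complex II at 1203 CPM, complex III at 4119 CPM, complex V at 18320 CPM and Ndufv1 at 744.98 CPM. C78, an F14 diploid female abdomen, was high in complex II at 456 CPM, Cox5a at 179.76 CPM and Cox6a1 at 109.07 CPM. Ndufa7 was high in C82, an F15 haploid male head, at 399.6 CPM and in C87, an F15 haploid male abdomen, at 213.41 CPM. Ndufa8 was low in C39, an F2 triploid female abdomen, at 48.54 CPM, and Ndufv1 was low in C30, an F2 diploid female abdomen, at 172.59 CPM.

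Effects that differed between groups by a test of the difference were found in 3 contrasts. The ploidy effect differed between F14 and F2 in female abdomens for 8 members, all higher (24.8% of all genes called higher and 8.04% lower). Members were thus called higher less often than all genes. Without C69 the count was 3, with 2 higher and 1 lower, and length offsets turned the direction. Between F15 and F5 in male abdomens the ploidy effect differed for 2 members, both lower (3.15% of all genes called lower and 1.02% higher). This is close to the share of all genes, and without C87 no member was called. The generation effect differed between female and male heads for 37 members, all lower (11.5% of all genes called lower and 8.26% higher). Without C82 this count was 16.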

How the results depend on the processing

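No paired analysis was possible because libraries carry codes only, with no replicate number shared between groups. Values below are members called, without the share of all genes called in the same setting. The fall in F14 female heads kept its direction in all 6 alternatives, with 44 to 61 called. Length offsets, fits without C46 and the contrasts of single ploidies and of both sexes were chosen after seeing the data. The causes of the shifts were not tested.

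In triploid against diploid females, F2 heads gave 8 fitted on the groups compared, 2 by limma on TPM and 1 with length offsets, F2 abdomens 2 on the groups compared, and F14 heads 10 on the groups compared, 2 by limma, 1 with length offsets and 1 by DESeq2. F14 abdomens gave 3 with RLE size factors, 2 without the filter, 0 on the groups compared and 19 without C46, and the direction turned with length offsets (1 lower), also without C46 (2 lower), and by limma (1 lower). For the F14 minus F2 ploidy effect in abdomens the values were 24 on the groups compared, 21 without C46 and 4 by limma, with the direction turned by length offsets (1, and 9 without C46). In diploid against haploid male abdomens, F5 gave 2 by DESeq2 and 1 with length offsets, and F15 gave 4 by DESeq2, 1 with length offsets, 7 without C46 and 5 with both. The F15 minus F5 ploidy effect gave 5 by DESeq2, 1 by limma and 0 on the groups compared.

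For generation, female abdomens gave 14 on the groups compared, 12 without C46, 11 by DESeq2, 2 by limma, 1 with length offsets and 20 with offsets and without C46. Male heads turned on the groups compared (4 called). Male abdomens gave 9 without C46, 5 on the groups compared, 4 by limma and 3 with length offsets, and turned with offsets and without C46 (8 called). Length offsets gave 17 in triploid female heads and 18 for the sex difference in the generation effect. Between sexes, limma gave 8 in haploid male heads, with the direction turned, 0 in diploid male heads, 19 in haploid and 18 in diploid male abdomens. Length offsets gave 2 in diploid male heads and 18 in haploid male abdomens, and diploid male abdomens turned with offsets and without C46 (31 called).

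Leaving out 1 library at a time gave 0 to 1 in ploidy of F14 heads, 0 to 23 in F14 female abdomens, 0 to 2 in F5 male abdomens and 1 to 7 in F15 male abdomens, which turned without C87 (1 called). The ploidy differences ranged over 3 to 24 in female and 0 to 5 in male abdomens. Generation ranged over 3 to 17 in female abdomens, 8 to 29 in male abdomens and 7 to 25 in male heads, which turned without C41 (7) and C45 (8), 24 to 50 in diploid female heads and 16 to 52 for the sex difference. Sexes in heads ranged over 1 to 6 in haploid and 0 to 2 in diploid males, and heads against abdomens over 31 to 61 in haploid and 25 to 54 in diploid males. No member named for a large change without overlap changed direction in the comparison it was named for. The other named members were not checked in this way.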
